A study of Mus musculus with 5 samples.

Results

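The immunoglobulin probe sets measure the messages of the antibody itself: the heavy chain, the kappa and lambda light chains, and the joining (J) chain that links antibody units into polymers. They were taken by gene symbol from the platform's annotation, as every probe set that lists a heavy, kappa or lambda gene or Jchain, whether it lists 1 gene or several, and the gene names Ighmbp2 and Igll1 were left out. This gave 57 of the 45037 probe sets that are not array controls, with 23 for heavy chains, 29 for kappa, 4 for lambda and 1 for Jchain. In 13 of the 57 several symbols are listed, so a value there cannot be given to 1 gene.

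RNA of splenic germinal centre B cells was measured on single-colour Affymetrix arrays. The donors were C57BL/6 littermate mice of 12 weeks that had received sheep red blood cells as immunogen 7 days earlier. The 2 REL arrays hold eGFP-positive cells of genotype relfl/flCg1-Cre, in which both alleles of Rel, the gene of the NF-kB subunit c-Rel, are flanked by loxP sites. The 3 WT arrays hold eGFP-negative cells carrying Cg1-Cre alone, so Cre is present in both groups. The groups differ in eGFP status as well as in genotype, and effects of these cannot be told apart in any value below. Cg1-Cre is read from the constant region locus of IgG1, one of the heavy chain genes, and recombination therefore follows transcription of that locus. No member probe set is annotated to Ighg1, so no value below is given to its own message. Whether a member annotated to another gene also reads that message was not tested. Whether the arrays come from different mice is not stated, so the p-values take account of array-to-array spread alone, and that spread may be technical.

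An antibody message joins a variable (V) segment, which binds antigen, to a constant (C) region, which sets the class. On mouse chromosome 12 the heavy chain constant genes run in the order Ighm, Ighd, Ighg3, Ighg1, Ighg2b, Ighg2c, Ighe and Igha. A naive B cell makes IgM and IgD, and class switching replaces Ighm by a gene further along that order, so that Ighg3 is the first IgG gene in line and Igha the last. Kappa genes lie on chromosome 6, lambda genes on chromosome 16 and Jchain on chromosome 5. Members here name Ighm (15 probe sets), Ighg3 (7), Igha (3), Igkc (3) and Iglc1 (1), and none names Ighd, Ighe, Ighg2b or Ighg2c. Heavy chain messages of different classes can carry the same V and J segments, and the annotation gives the gene of a probe set, not the part of the message it reads.

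Signals are MAS5 values on a linear scale, and differences are REL minus WT on the log2(signal + 16) scale, with the standard error (SE) of limma. The level of a probe set is not comparable with that of another. None of the 57 members changed by limma at an adjusted p under 0.05, where 50 were bright enough to be tested. Over all 27022 probe sets tested 0% were called higher and 0% lower. At an unadjusted p under 0.05 there were 5 members lower and 1 higher in REL, or 10% and 2% of those tested, against 4.11% and 3.71% of all probe sets. The 5 lower ones all list Ighm as their single gene, and the higher one lists Ighg3. The groups did not overlap in 11 members, with REL entirely below WT in 6 of the 57 (10.5%) and entirely above it in 5 (8.77%), against 14.1% and 8.52% of all probe sets, so the members as a whole stood near the background. The median difference over the 57 members was −0.017, against −0.082 over all probe sets.

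The labelled cell type was present in both groups by its markers. The summed signal of 5 general B cell markers was 43505 and 50867 in REL and 42648 to 49765 in WT, and that of 10 germinal centre markers 46414 and 52115 in REL and 46749 to 56504 in WT. Of these 10, REL lay entirely below WT in 2 (20%, against 14.1% of all probe sets) and entirely above it in 0 (against 8.52%). Naive or follicular B cell markers (9 genes) summed to 12666 and 12277 in REL and 11659 to 12699 in WT. REL lay entirely below WT in 2 of the 9 (22.2%, against 14.1%) and entirely above it in 1 (11.1%, against 8.52%). Markers of plasma cells, the cells that secrete antibody, summed over 12 genes to 20378 and 22779 in REL and 19663 to 24866 in WT. Such a sum weights bright genes most, and single genes went both ways. REL lay entirely below WT in 2 of the 12, Sdc1 and Slpi (16.7%, against 14.1% of all probe sets). It lay entirely above WT in 2, Xbp1 and Derl3 (16.7%, against 8.52%). Sdc1 had 42.6 and 42.4 in REL and 455, 125 and 164 in WT (−1.96, SE 0.69, limma adjusted p = 0.528). Macrophage markers had a difference above 0 in 13 of 14 genes, against 18624 of all 45037 probe sets. REL lay entirely above WT in 10 of the 14 (71.4%, against 8.52% of all probe sets) and entirely below it in 1 (7.14%, against 14.1%). At an unadjusted limma p under 0.05, 10 of the 13 tested were higher (76.9%, against 3.71%), and none was called after adjustment. The sums were 6028 and 6396 in REL against 1320 to 1883 in WT, and the part of such cells in the values below was not tested. Sums of neutrophil markers (5 genes) were 349 and 88.7 in REL and 100.04 to 1304 in WT, and those of T cell markers (7 genes) were 813 and 291 in REL and 220 to 554 in WT. Rel itself had signals of 18.6 and 85.2 in REL and 492, 134 and 206 in WT. In such bulk samples fewer cells of a type and less RNA per cell cannot be told apart.

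The 11 probe sets that list Ighm alone, the gene of the IgM constant region, gave unlike values. In 7 the difference was below 0 and in 4 above, with a median of −0.63, and in 5 of the 11 (45.5%, against 14.1% of all probe sets) REL lay entirely below WT. The median deviation of the 11 from the WT mean was −0.14 and −0.40 on the REL arrays and −0.09, 0.16 and −0.15 on the WT arrays. Probe sets of 1 gene can read the same messages, so these 5 are not 5 independent measurements. The probe set with the smallest p of all members, 1427870_x_at, had signals of 1385 and 1774 in REL against 2992, 3715 and 2745 in WT. Both REL values lay well under the lowest WT value, with a difference of −0.99 (SE 0.25, limma adjusted p = 0.415). For 1427756_x_at the signals were 1964 and 2638 in REL and 3827, 4369 and 3371 in WT, a difference of −0.75 (SE 0.23, limma adjusted p = 0.48). For 1425324_x_at they were 1858 and 2492 in REL and 3272, 4106 and 3149 in WT, a difference of −0.69 (SE 0.23, limma adjusted p = 0.516). The order of the arrays was the same in these 3, with REL replicate 1 lowest and WT replicate 2 highest.

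The other Ighm probe sets without overlap showed the same lowest and highest array, but with REL replicate 2 close to WT. Probe set 1427869_at had 2223 and 4695 in REL and 5276, 6898 and 5117 in WT (−0.82, SE 0.30, limma adjusted p = 0.542). Probe set 1425247_a_at had 3431 and 5426 in REL and 6605, 7666 and 5848 in WT (−0.63, SE 0.22, limma adjusted p = 0.532). The size depended on REL replicate 1 most in 1427869_at and 1425247_a_at and least in 1427870_x_at. Without that array the differences of 1427870_x_at, 1427869_at, 1427756_x_at, 1425324_x_at and 1425247_a_at were −0.81, −0.28, −0.54, −0.48 and −0.30, and without REL replicate 2 they were −1.16, −1.35, −0.96, −0.90 and −0.95. Median centring of the arrays left them at −0.82, −0.65, −0.58, −0.52 and −0.46, with unadjusted p of 0.0604 to 0.269.

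Other Ighm probe sets did not share this pattern. Probe set 1427329_a_at had 6618 and 8097 in REL against 6703, 7321 and 7521 in WT, a difference of 0.029 (SE 0.15). Probe set 1427351_s_at had 5705 and 7067 in REL against 5270, 6437 and 7331 in WT, a difference of 0.014 (SE 0.19). In both the groups overlapped, and the limma adjusted p was 0.982 and 0.995. Without REL replicate 2 both differences turned below 0, to −0.12 and −0.14. The groups overlapped in the remaining 4 as well. Their differences were −0.41 for 1425385_a_at, 0.10 for 1452535_at, 0.059 for 1451949_at and −0.90 for 1426196_at, where REL replicate 2 stood at 3.33 and the other arrays at 33.7 to 75.3. Without REL replicate 2 the differences of 1425385_a_at and 1426196_at were −0.038 and −0.046. The 11 probe sets therefore give no single answer for Ighm, and which part of the message each reads is not given in the sources used here. Nor is it given whether any of them reads a message of another class.

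Ighg3, the first IgG constant gene after Ighd, had a difference above 0 in 3 of its 4 single-gene probe sets. In these 3 REL lay entirely above WT (75%, against 8.52% of all probe sets), but only 2 of the 3 were bright enough for the test, and neither passed it after adjustment. As with Ighm, these 3 can read the same messages, so they are not 3 independent measurements. Probe set 1427503_at had 3967 and 5671 in REL against 3072, 3292 and 3179 in WT, a difference of 0.57 (SE 0.21, limma adjusted p = 0.542). The WT arrays lay close together and REL replicate 2 stood highest, and the difference was 0.83 without REL replicate 1 and 0.32 without REL replicate 2. Probe set 1447998_at had 8187 and 9765 in REL against 6072, 7537 and 7918 in WT, a difference of 0.33 (SE 0.17, limma adjusted p = 0.685). Here REL replicate 1 lay only a little above WT replicate 3, and the difference was 0.20 without REL replicate 2 and 0.21 without WT replicate 1. The median deviation of the 4 from the WT mean was 0.23 and 0.32 on the REL arrays and −0.040, 0.065 and 0.059 on the WT arrays. The 2 dim ones had signals of 4.27 to 14.7 on all arrays. They were not tested. One, 1426198_at, was at 9.95 and 8.41 in REL and 5.05, 4.27 and 7.34 in WT. The other, 1426199_x_at, was at 12.2 and 6.35 in REL and 12.6, 14.7 and 5.44 in WT, where the groups overlapped and the difference was −0.082.

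Igha, the gene of the IgA constant region, varied more within the groups than any group difference. Its probe set 1421653_a_at had 820 and 39.1 in REL against 134, 2710 and 908 in WT, so that the WT arrays alone spanned 20.2-fold. Its probe set 1425763_x_at had 481 and 28.1 in REL against 113, 2007 and 474 in WT, a WT span of 17.8-fold, and 1429381_x_at had 345 and 57.5 in REL against 99.3, 588 and 237 in WT, a span of 5.91-fold. All 3 probe sets put WT replicate 2 highest and REL replicate 2 lowest. The differences were −1.75 (SE 1.29), −1.77 (SE 1.22) and −0.68 (SE 0.87), with limma adjusted p of 0.792, 0.77 and 0.897. Without REL replicate 2 the differences were 0.21, −0.021 and 0.47, and without REL replicate 1 they were −3.71, −3.51 and −1.82. Among the 12 plasma cell markers WT replicate 2 was highest in 5 and REL replicate 2 lowest in 3, with both true of 1, Tnfrsf17, the receptor BCMA (12.7 and 3.01 in REL, 7.34, 27.1 and 5.59 in WT). The summed neutrophil markers, at 349 and 88.7 in REL and 697, 1304 and 100.04 in WT, had the same highest and lowest arrays as Igha, as did 2 of the 5 genes, S100a8 and S100a9. The same highest and lowest arrays were also found in 2 of 9 naive or follicular B cell markers. They were found in 1 each of 10 germinal centre, 14 macrophage and 7 T cell markers, and in 0 of 5 general B cell markers. The share of all probe sets with these highest and lowest arrays was not counted, so whether any of these counts is unusual cannot be said. The part of any of these cell types in the Igha values was not tested.

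The other heavy chain members name a V segment. Ighv14-2, on 1455530_at, had 6281 and 5045 in REL against 6425, 7119 and 6207 in WT, a difference of −0.22 (SE 0.17, limma adjusted p = 0.792). It was −0.38 without REL replicate 1 and −0.065 without REL replicate 2, and the groups overlapped because the value of REL replicate 1 was inside the span of the WT values. The 3 probe sets that list Ighv14-2, Ighg3 and Ighm together were dim. Of these 1451947_at had 42.9 and 29.2 in REL and 4.07, 7.80 and 21.6 in WT, below the level tested. Probe set 1427758_x_at, at 16.2 and 31.8 in REL and 47.8, 31.8 and 36.5 in WT, was at −0.47 (SE 0.56), and 1452538_at was not tested. Probe set 1427851_x_at, which lists Ighv1-72 and Ighm, had 20.7 and 25.6 in REL and 3.13, 28.5 and 64.4 in WT, and its difference of −0.065 (SE 0.69) became 0.27 with 1 added to the signals in place of 16.

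Set against each other within an array, switched and unswitched heavy chains gave no steady difference. The mean over the 7 probe sets of Ighg3 or Igha, less the mean over the 12 that name Ighm without a switched class, was −0.80 and −2.17 in REL and −2.07, −0.75 and −1.55 in WT. The group means differed by −0.030. With the Igha probe sets left out, a choice made after their values were seen, the same measure was −0.98 and −0.93 in REL and −1.50, −1.64 and −1.78 in WT, and the groups differed by 0.68. With the probe sets too dim for the test left out instead and Igha kept, also chosen after the values were seen, the groups differed by −0.24. Neither variant is evidence beyond the values given above, since both rest on them.

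Kappa light chain members differed little between the groups. Of the 29, 15 lay above 0 and 14 below, the median difference was 0.011, and the groups did not overlap in 1 member in each direction (3.45% each, against 8.52% of all probe sets higher and 14.1% lower in REL). The 3 probe sets that include the constant gene Igkc list 4 further kappa segments each. Probe set 1427455_x_at had 14812 and 18750 in REL against 15265, 18732 and 18734 in WT. Probe set 1427660_x_at had 15468 and 16139 in REL against 15621, 17925 and 19936 in WT. In each the groups overlapped, and REL replicate 1 stood lowest. The third, 1452417_x_at, had 16080 and 18143 in REL against 16571, 18714 and 19739.5 in WT. The differences of the 3 were −0.070 (SE 0.14), −0.17 (SE 0.12) and −0.099 (SE 0.11), and with median centring all 3 turned above 0 (0.099, 0.0027 and 0.071). These signals lay near the highest of any probe set on the arrays (20469 and 22593 in REL, 20944 to 26263 in WT), and compression of the scale at that level was not tested.

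Among the 4 probe sets annotated to the whole Igk locus, 1452557_a_at had 15497 and 18313 in REL against 15193, 19313 and 18075 in WT. Its difference was −0.050 (SE 0.13), and it turned to 0.065 with quantile normalization and 0.12 with median centring. The groups overlapped in the other 3 too. Of these 1425738_at was at 0.15, 1426178_at at 0.31 and 1427757_at at −0.84 (SE 0.70), with 65.0 and 129 in REL and 179, 348 and 87.3 in WT for the last.

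The 22 kappa probe sets that name V segments without Igkc had differences of −1.15 to 0.59 with a median of 0.054, and 13 were above 0. Igkv8-30 on 1452463_x_at had 9868 and 13226 in REL against 9883, 12552 and 11633 in WT, a difference of 0.016 (SE 0.16). Igk-V21 on 1427858_at had 8102 and 9096 in REL against 6731, 9105 and 5773 in WT, a difference of 0.28 (SE 0.20) that was 0.46 without WT replicate 2 and 0.13 without WT replicate 3. Igkv19-93 on 1427855_at had 6361 and 6069.6 in REL against 5925, 7094 and 5575 in WT, a difference of 0.011 (SE 0.16). In all 3 the REL values lay inside or across the WT range. Igkv9-120 has 3 probe sets that disagree. Probe set 1460423_x_at had 8379.6 and 7214 in REL against 6263, 8096 and 4891 in WT (0.31, SE 0.21, with 0.49 without WT replicate 2 and 0.13 without WT replicate 3), 1452536_s_at was at −0.17 (SE 0.64), and 1427750_at had 5.01 and 6.77 in REL against 40.2, 26.5 and 32.1 in WT, with means of 5.89 ± 1.25 in REL (SD, n = 2) and 32.9 ± 6.88 in WT (SD, n = 3). That was the kappa member with REL entirely below WT, and it lay under the level tested. The one with both above was 1427799_x_at, which lists Igkv6-14 and Igkv6-23, at 85.8 and 93.2 in REL and 59.1, 35.0 and 73.4 in WT (0.59, SE 0.60).

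Lambda light chains, which form a small share of mouse antibody, are read by 4 probe sets, and in none did the groups separate. Probe set 1424931_s_at, listing the constant gene Iglc1 and Iglv1, had 10630.5 and 13856 in REL against 10830.1, 13727 and 12559.9 in WT, a difference of −0.021 (SE 0.15) that became 0.078 with quantile normalization and 0.15 with median centring. The other 3 list Iglv1, the V segment most used with Iglc1. Probe set 1430523_s_at had 3856 and 5171 in REL against 3648, 4018 and 3314 in WT, a difference of 0.29 (SE 0.20) that was 0.50 without REL replicate 1 and 0.079 without REL replicate 2. Probe sets 1427292_at and 1447918_x_at were at 0.10 (SE 0.16) and 0.16 (SE 0.27). The limma adjusted p of the 4 ran from 0.776 to 0.987, and their median difference was 0.13. The median kappa level less the median lambda level differed between the groups by −0.10, and by 0.45 without REL replicate 2. Its SD between arrays was 0.77 in REL and 0.18 in WT. But the median kappa level fell on 1427857_x_at (1041) in REL replicate 1 and on 1426201_at (545) in REL replicate 2. Levels of unlike probe sets are not comparable, so this measure cannot show a shift of kappa against lambda. Within probe sets, the median deviation from the WT mean was 0.0072 and 0.070 for kappa and 0.11 and 0.12 for lambda on the REL arrays. On the WT arrays it was −0.024, 0.098 and −0.10 for kappa and −0.074, 0.093 and 0.024 for lambda.

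Jchain, which also marks cells that secrete polymeric antibody, was level across the arrays. It had 11599.6 and 12528 in REL against 11379, 13129 and 12519 in WT, means of 12064 ± 656 (SD, n = 2) and 12342 ± 888 (SD, n = 3). The difference of −0.031 (SE 0.12, limma adjusted p = 0.973) became 0.078 with quantile normalization and 0.14 with median centring.

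The spread between WT arrays was set against that of probe sets in the same band of signal. In the band above 1879, with 27 of the 57 members, the median SD of the WT arrays was 0.18 log2 units for the members and 0.18 for all 4504 probe sets. For signals of 115 to 681 the median SD was 0.43 over 13 members and 0.50 over all. The Igha probe sets stood outside this, with a median WT SD of 1.99. Of the 57, 21 carry the suffix _x_ or _s_, given to probe sets whose probes match other sequences or related transcripts. Their median difference was −0.070, against 0.098 for the 30 with no suffix letter and −0.35 for the 6 with the suffix _a_. Of the 5 lower Ighm probe sets 3 carry _x_ and 1 carries _a_.

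Genes that act on immunoglobulin transcription and class switching, 25 of 29 listed being measured, had a median difference of −0.0082, and none of the 24 tested changed in limma. At an unadjusted p under 0.05, 1 was higher (4.17% of those tested, against 3.71% of all probe sets) and 2 were lower (8.33%, against 4.11%). Bach2, a repressor of plasma cell fate that favours class switching, had 9505 and 10499 in REL against 8103, 5143 and 4612 in WT (0.79, SE 0.23, limma adjusted p = 0.463). Apex1, an endonuclease that cuts abasic sites such as those left at switch regions, had 4891 and 5102 in REL against 7391, 8917 and 6741 in WT (−0.61, SE 0.17, limma adjusted p = 0.436). The other lower gene was Rel (−2.12, SE 0.76, limma adjusted p = 0.532), at −1.34 without REL replicate 1. Genes of antibody folding, assembly and secretion, 25 genes measured under 26 listed symbols, had a median of 0.040, and by limma 0 were called and 0 had an unadjusted p under 0.05. REL lay entirely above WT in 6 of the 25 (24%, against 8.52% of all probe sets) and entirely below it in 1 (4%, against 14.1%). The 3 with the smallest p were Xbp1, the transcription factor of the secretory programme (0.49, SE 0.23), the chaperone partner gene Dnajc3 (0.46, SE 0.24) and Derl3, which acts in the removal of misfolded proteins (0.90, SE 0.49), and their limma adjusted p ran from 0.664 to 0.706. The Derl3 difference was 1.59 without REL replicate 1 and 0.22 without REL replicate 2.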

How the data were processed

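MAS5 signal intensities on a linear scale were deposited by the authors for 5 arrays and 45101 probe sets. The submitters' processing notes name MAS5 without a version or settings. Each array had a 2% trimmed mean of 500, and the medians were 48.1 and 30.1 in REL and 40.7, 41.1 and 54.6 in WT. Per the labels' protocols, a small amount of RNA was amplified before labelling.

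Arrays were grouped by their titles. Genes were named from the platform annotation, and 56 of the 57 members matched RefSeq (GRCm38.p6) by Entrez identifier. The 64 control probe sets were left out. Signals were transformed as log2(signal + 16). Probe sets in the lowest 40% by mean signal (below 26.8) were not tested, which left 27022, including those with several symbols. The test was limma 3.58.1 in R 4.3.3, two-sided, with a trend of variance on mean, and no term but group (residual degrees of freedom 3, prior 6.23). Its p-values were adjusted by Benjamini-Hochberg over all probe sets tested, at a threshold of 0.05. The number of arrays limits the precision. The code was tested on simulated data.

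The members and lists were chosen with earlier results of these data known. The rule for named probe sets took all that name a constant region or Jchain, the 5 brightest others per chain, the 5 in each direction with the smallest p, up to 3 genes per list, and Rel. Other members, Tnfrsf17, Sdc1, Slpi, S100a8, S100a9 and the variants of the switched measure were named after their values were seen. Alternatives changed the pseudocount (1 or 64), the filter (none, or 60%), the normalization (quantile, or centring on the median), the variance trend, the block on replicate number, the arrays (each left out in turn), the members counted, and the number of probe sets a gene.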

Additional observations from a re-analysis of the deposited data

How the results depend on the processing

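No immunoglobulin probe set was called by limma under any of the alternatives run (lowest adjusted p = 0.0882, with the replicate block), and 0 to 8 had an unadjusted p under 0.05, with 0 under median centring and with 1 probe set a gene. Over all probe sets 0 were called, except that the replicate block called 11. Whether same-numbered arrays belong together is not stated. Their deviations from the group means correlated at −0.00096 and 0.012. With 2 REL arrays these values are not independent, and they do not settle whether such arrays share a batch. The median difference of all members moved to 0.065 with quantile normalization and 0.15 with median centring, where the median of all probe sets was −0.0077 and 0.088, and was −0.024 to 0.024 with an array left out. That of heavy chains moved to −0.053 with median centring, to 0.044 over members without the suffix _x_ or _s_ and to −0.41 over members with 1 symbol, and was −0.35 to −0.038 with an array left out. That of kappa chains moved to 0.18 with median centring and was −0.024 to 0.11 with an array left out, and that of lambda chains moved to 0.30 and was 0.096 to 0.16. The switched minus unswitched difference ran from −0.72 to 0.66 and the kappa minus lambda difference from −0.65 to 0.45 with an array left out. The kappa minus lambda measure depends on which probe set holds the median level of an array, so its range cannot show a shift of kappa against lambda. Of 563 values of 42 named probe sets under alternatives, 516 kept their direction and 47 did not. With quantile normalization and median centring in turn, direction turned for Jchain (0.078 and 0.14), 1424931_s_at (0.078 and 0.15), 1426199_x_at (0.044 and 0.087), 1427455_x_at (0.041 and 0.099), 1452417_x_at (0.023 and 0.071), 1452557_a_at (0.065 and 0.12) and 1427851_x_at (0.16 and 0.10, 0.27 with a pseudocount of 1 and 0.42 with the block), and for 1427660_x_at with median centring (0.0027). With the block it turned for 1452535_at (−0.0032), 1452538_at (−0.10) and 1427855_at (−0.061). With an array left out, direction turned for Igha on 1421653_a_at (−3.71 to 0.21) and 1429381_x_at (−1.82 to 0.47), for Ighm on 1427329_a_at (−0.12 to 0.17), 1427351_s_at (−0.14 to 0.17), 1451949_at (−0.40 to 0.51) and 1452535_at (−0.0032 to 0.18), for 1426199_x_at (−0.25 to 0.085), 1427851_x_at (−0.61 to 0.42), 1452538_at (−0.10 to 0.48), Jchain (−0.089 to 0.024), 1424931_s_at (−0.21 to 0.17), 1447918_x_at (−0.049 to 0.36), 1427455_x_at (−0.24 to 0.10), 1452557_a_at (−0.17 to 0.070), 1452463_x_at (−0.20 to 0.23) and 1427855_at (−0.061 to 0.11). The cause of these shifts was not tested.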
